A study of Mus musculus with 6 samples.

Results

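The genes described here are 10 enzymes and regulators of glycolysis: the hexokinases Hk1 and Hk2, the isomerase Gpi1, the phosphofructokinases Pfkl and Pfkp, the bifunctional regulators Pfkfb3 and Pfkfb4, the kinases Pgk1 and Pkm, and the dehydrogenase Ldha. They were taken by gene symbol from a table of 55487 genes, and each of the 10 was found and passed the filter on low counts. The tumours compared were sgLkb1 tumours, labelled Lkb1 mutant, and sgNeo tumours, labelled Lkb1 wild type, with 3 bulk RNA-seq libraries each. Both genotypes were KP lung tumours, a mouse model of lung adenocarcinoma. The cells were GFP-positive and CD45-negative, sorted 11 weeks after tumours were initiated. The labels give neither the strain, age or sex of the mice, nor the promoter that drives GFP, nor whether replicates are separate mice. The spread that the p-values rest on may thus be technical.

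Glycolysis turns glucose into pyruvate in the cytosol. Hexokinase traps glucose as glucose 6-phosphate, phosphofructokinase makes the committed step, phosphoglycerate kinase and pyruvate kinase return ATP, and lactate dehydrogenase A reduces pyruvate to lactate, which regenerates the NAD+ the route consumes. The PFKFB enzymes make and break fructose 2,6-bisphosphate, the strongest known activator of phosphofructokinase. LKB1, encoded by Stk11, activates the energy sensor AMPK, which is known to act on PFKFB proteins and on mTORC1, an inducer of the transcription factor HIF-1 and with it of many glycolytic genes.

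Of the 10 genes, Pgk1, Pkm and Pfkp rose in sgLkb1 tumour cells and Pfkfb4 fell, while 6 did not pass the test. The 3 that rose compare with 7.05% of the 15978 genes tested, and the 1 that fell with 8.60%. The 4 calls together compare with 15.7%. Calls were made with edgeR's quasi-likelihood test at a Benjamini-Hochberg adjusted p of 0.05 over all genes tested. The median log2 fold change of the 10 (sgLkb1 over sgNeo) was 0.49, against 0.02 over all genes tested. In 6 of the 10 every sgLkb1 library lay above every sgNeo library, as in 16.3% of all genes tested, and in 2 of the 10 below, as in 20.3%. The groups thus did not overlap in 8 of the 10, against 36.5% of all genes tested. The 10 were chosen with earlier results of these data known, so these shares do not measure how unusual they are. Levels are in CPM, counts per 1000000 counts of the scaled library. Values per library are listed below in the order of replicates 1, 2 and 3, and each of the 6 leave-one-out fits dropped 1 library. Without sgNeo replicate 1, and likewise without sgNeo replicate 2, Pgk1 alone was called higher, and without sgLkb1 replicate 3 it was Pgk1 and Pkm. Those fits called 545 of 16850, 447 of 16750 and 996 of 16575 genes higher, against 1127 of 15978 with all libraries.

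**Figure D1:**
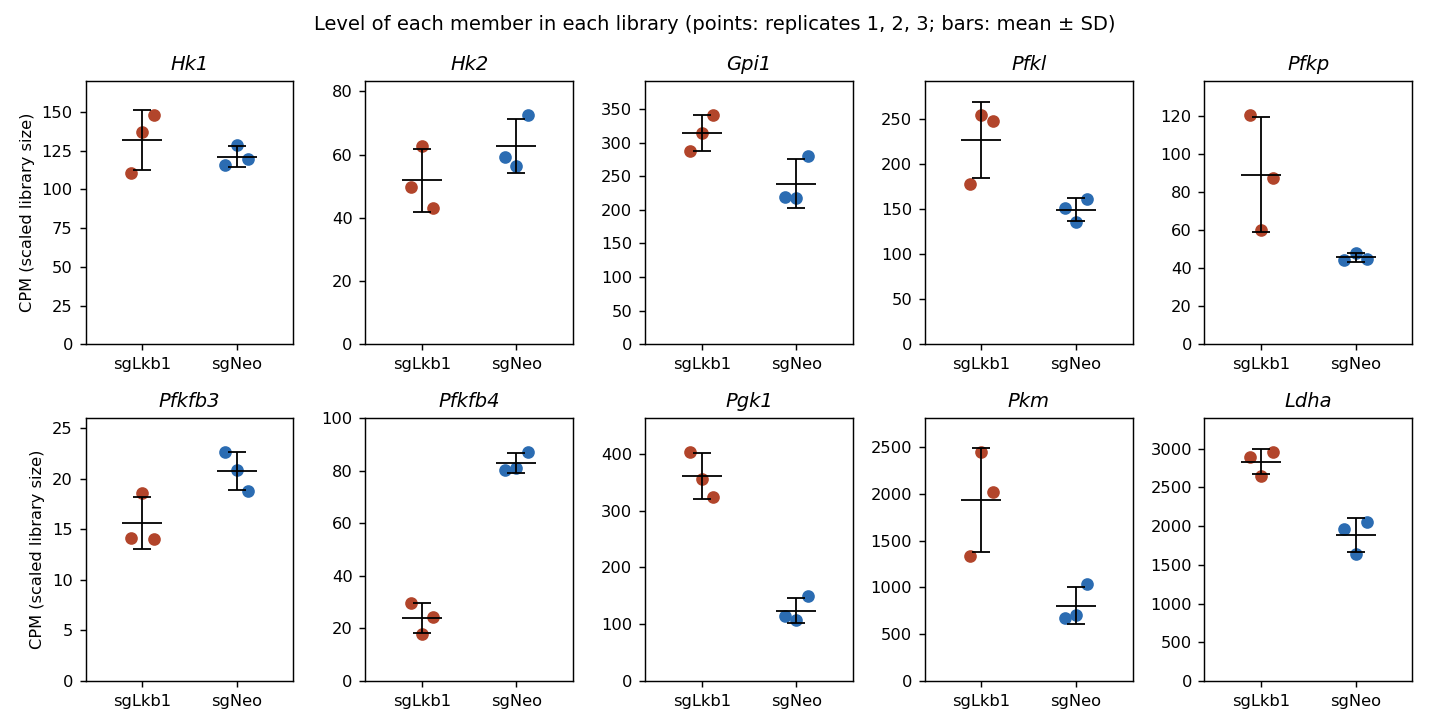
Level of each of the 10 genes in CPM relative to the scaled library size in the 3 sgLkb1 and the 3 sgNeo libraries, each panel on its own linear axis from 0, with points for libraries and bars for mean ± SD. Pgk1, Pkm and Pfkp lie higher in all sgLkb1 libraries and Pfkfb4 lower, while Hk1 and Hk2 overlap between the genotypes.

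The libraries held 29613678 to 41729299 counts in sgLkb1 and 26007503 to 28986526 in sgNeo. The targeted gene Stk11 was at 23.5, 25.6 and 25.3 CPM in sgLkb1, and at 68.3, 33.4 and 82.7 CPM in sgNeo (log2 fold change -1.31, edgeR adjusted p = 0.023). Among the leave-one-out fits it passed only without sgNeo replicate 2, with edgeR adjusted p up to 0.076 in the others. Epcam and Cdh1, which define epithelium, averaged 1073 and 1047 CPM in sgLkb1 and 501 and 949 CPM in sgNeo. Of 6 epithelial and lung markers Epcam was called higher and Nkx2-1 and Sftpc lower, and the 6 summed to 13980 to 18840 CPM in sgLkb1 and 74570 to 88200 CPM in sgNeo. Most of that sum was Sftpc, at 8691 ± 2660 CPM in sgLkb1 and 75930 ± 6733 CPM in sgNeo, while the keratins Krt8 and Krt18 averaged 3075 and 2175 CPM in sgLkb1 and 2052 and 1598 CPM in sgNeo. The leukocyte marker Ptprc, which encodes the sorted-out CD45, lay at 4.36 to 10.4 CPM in sgLkb1 and 4.86 to 8.86 CPM in sgNeo. Some markers of other cell types moved with the genotype. Summed over 6 fibroblast markers, the level was 174 to 1383 CPM in sgLkb1, highest in replicate 3, and 35.0 to 109 CPM in sgNeo, with 4 of 6 called higher. Summed over 6 endothelial markers it was 66.4 to 115 CPM in sgLkb1 and 26.7 to 43.7 CPM in sgNeo, with 3 of 6 called higher. Summed over 6 macrophage markers it was 48.5 to 91.2 CPM in sgLkb1 and 28.0 to 34.2 CPM in sgNeo, with 2 of 6 called higher. The 4 mesothelial markers added up to 814 to 1279 CPM in sgLkb1 and 169 to 427 CPM in sgNeo, nearly all of it Msln, the only 1 called higher. Upk3b and Lrrn4 did not pass and Wt1 was not tested. In that order Upk3b, Lrrn4 and Wt1 were at 0.42, 0.46 and 0.34 CPM in sgLkb1 replicate 1. They were at 16.5, 13.1 and 7.46 CPM in sgLkb1 replicate 3, and averaged 0.63, 0.23 and 0.04 CPM in sgNeo. Neutrophil markers (6 genes) summed to at most 18.0 CPM, erythroid markers (5) to at most 18.5 CPM, and T and B cell markers (6) to at most 7.38 CPM in any library, with 1 T and B cell marker called lower, and no gene of these lists was at 0 in all 6 libraries. The part of these cells in the differences below was not tested, and in bulk RNA fewer cells of a type and less RNA per cell cannot be told apart.

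Pgk1, phosphoglycerate kinase, which makes the first ATP the route returns, had the largest rise of the 10. Its level was 403, 355 and 324 CPM in sgLkb1, and 115, 108 and 149.5 CPM in sgNeo. Every sgLkb1 library lay far above every sgNeo library. The log2 fold change was 1.54 (SE 0.19), a 2.91-fold higher level, with an edgeR adjusted p of 0.0017. It passed in every leave-one-out fit, where the log2 fold change ran between 1.44 and 1.69 and the highest edgeR adjusted p was 0.017. The gene spans bases 106187100 to 106203699 of chromosome X, plus strand (GRCm38). Reads that match its processed pseudogenes could be divided between copies. The 3 pseudogene rows named after Pgk1 held at most 0.01 counts in any library, and copies under other names were not looked up.

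Promoter windows of the genes, from 250 bases before to 50 after a RefSeq start (GRCm38.p6), were read for 4 motifs on both strands. ACGTG is the core of the hypoxia response element that HIF binds, and CACGTG is the E-box that MYC and the MLX partners bind, which contains ACGTG on each strand. The other two were TGACGTCA, the full cyclic AMP response element that CREB binds, and TGACG, its shorter core, which TGACGTCA contains on each strand. All 10 genes had a window, 14 windows in all. ACGTG was in 7 of the 14 windows, belonging to 6 genes, against 19.6% of all 32851 promoter windows. CACGTG was in 2 of the 14, against 7.15% of all windows, and TGACGTCA in 1, against 1.79%. TGACG was in 7 of the 14, belonging to 5 genes, against 20.8% of all windows. The full set of windows was not matched to these for base content or for level of expression. Whether any motif is in excess was not tested. Of the 4 genes that passed the test, Pgk1 and Pkm had ACGTG in a window, Pkm and Pfkfb4 had TGACG, and Pfkp had none of the 4 motifs. Hk1, Hk2, Pfkfb3 and Ldha, which did not pass, also had ACGTG, and all of these but Hk1 had TGACG. Gpi1 and Pfkl had none of the 4. The windows below are shown because they contrast the gene with the largest rise, the most abundant gene and the gene with the largest fall. They are written 5′ to 3′ on the gene's strand, with capitals marking the motifs. The Pgk1 window (chrX:106186850-106187149, plus strand) has ACGTG, read on either strand, with its first base at -150 and -131 from the start. The Ldha window (chr7:46845554-46845853, plus strand), the first of its 2 in the table, has CACGTG at -145 and -48, a further ACGTG core at -34 and TGACGTCA at -12, which holds both its TGACG matches. The Pfkfb4 window (chr9:108991652-108991951, plus strand) has a single TGACG at -128.
Pgk1: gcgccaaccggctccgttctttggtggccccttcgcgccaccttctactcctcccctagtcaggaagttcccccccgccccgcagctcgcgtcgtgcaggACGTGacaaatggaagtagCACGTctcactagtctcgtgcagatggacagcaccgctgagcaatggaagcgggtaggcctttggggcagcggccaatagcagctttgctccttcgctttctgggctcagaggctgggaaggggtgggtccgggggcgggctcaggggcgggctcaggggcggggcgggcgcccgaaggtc
Ldha: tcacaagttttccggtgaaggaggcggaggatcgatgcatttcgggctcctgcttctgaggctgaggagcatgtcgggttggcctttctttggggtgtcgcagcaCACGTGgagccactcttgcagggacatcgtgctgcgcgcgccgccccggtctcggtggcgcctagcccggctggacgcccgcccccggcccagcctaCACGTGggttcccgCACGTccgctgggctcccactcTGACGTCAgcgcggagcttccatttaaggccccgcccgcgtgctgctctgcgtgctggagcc
Pfkfb4: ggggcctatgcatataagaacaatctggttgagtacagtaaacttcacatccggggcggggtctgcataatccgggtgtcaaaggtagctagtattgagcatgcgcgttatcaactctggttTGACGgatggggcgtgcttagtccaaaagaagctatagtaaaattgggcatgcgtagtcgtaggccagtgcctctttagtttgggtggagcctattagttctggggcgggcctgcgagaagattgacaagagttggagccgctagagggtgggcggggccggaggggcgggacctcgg

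Pkm, which encodes the M1 and M2 forms of pyruvate kinase, catalysing the last step to pyruvate, also rose. Its level was 1339, 2445 and 2017 CPM in sgLkb1, and 668, 709.5 and 1037 CPM in sgNeo. The groups did not overlap, though sgLkb1 replicate 1 lay closer to sgNeo replicate 3 than to the other sgLkb1 libraries. The log2 fold change was 1.26 (SE 0.28), 2.40-fold, with an edgeR adjusted p of 0.020. Dropping sgNeo replicate 1 or 2 ended the call (edgeR adjusted p = 0.079 and 0.096), as did dropping sgLkb1 replicate 2 (edgeR adjusted p = 0.056). The table gives a sum over isoforms, so M1 and M2 are not separated. Gm49759, a gene model whose exons overlap those of Pkm on the same strand, was at 18.8 ± 2.67 CPM in sgLkb1 and 7.10 ± 1.12 CPM in sgNeo. The liver and red-cell pyruvate kinase Pklr was at most 0.27% of the step per length in any library, so Pkm carried nearly all of it in both genotypes.

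Ldha, lactate dehydrogenase A, was the most abundant of the 10 in every library. It stood at 2899, 2646 and 2958 CPM in sgLkb1, and at 1966, 1635 and 2054 CPM in sgNeo. The libraries did not overlap, and the sgLkb1 level was 1.504-fold the sgNeo level, but the difference did not pass (log2 fold change 0.59, SE 0.18, edgeR adjusted p = 0.065). DESeq2 and limma-voom gave adjusted p of 0.0024 and 0.048 for it. Ldha passed in none of the 6 leave-one-out fits, whose edgeR adjusted p ran from 0.075 to 0.26. The sister subunit Ldhb, which forms the heart-type enzyme and favours the conversion of lactate to pyruvate, fell to 20.5 ± 11.7 CPM in sgLkb1, against 176 ± 22.7 CPM in sgNeo (log2 fold change -3.10, SE 0.42, edgeR adjusted p = 0.0028). Ldhb passed in every leave-one-out fit, the highest edgeR adjusted p being 0.013. Ldhb made up 1.44, 0.72 and 2.25% of lactate dehydrogenase RNA per length in sgLkb1, and 17.2, 16.2 and 15.9% in sgNeo. This share is taken within each library and does not depend on the scaling between libraries. Processed pseudogene rows named after Ldha held at most 20.2 counts in any library, and copies under other names were not looked up.

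The committed step is made by phosphofructokinase, whose liver form Pfkl and platelet form Pfkp both belong to the 10. Pfkp rose to 120.5, 59.99 and 87.3 CPM in sgLkb1, against 44.2, 48.3 and 44.8 CPM in sgNeo. The sgNeo libraries were close together and the sgLkb1 libraries were spread widely, with replicate 2 only a little above sgNeo. The log2 fold change was 0.96 (SE 0.24), 1.95-fold, with an edgeR adjusted p of 0.032. Leaving out any 1 of the sgNeo libraries, or sgLkb1 replicate 3, ended the call, with edgeR adjusted p between 0.065 and 0.11. Exons of Pitrm1 overlap those of Pfkp on the other strand, and Pitrm1 was at 39.7 ± 5.89 CPM in sgLkb1 and 37.5 ± 9.01 CPM in sgNeo. Pfkl, the main form in both genotypes, was at 178, 254 and 248 CPM in sgLkb1, and at 151, 136 and 161 CPM in sgNeo. Its libraries did not overlap, but it missed the threshold (log2 fold change 0.60, SE 0.18, edgeR adjusted p = 0.061). It passed with DESeq2 (adjusted p = 0.012) and with no filter on low counts (edgeR adjusted p = 0.034). It also passed without sgLkb1 replicate 1 (log2 fold change 0.76, edgeR adjusted p = 0.011). Among the sgLkb1 libraries, that was the one where Pfkl was lowest and Pfkp highest. In the other leave-one-out fits the edgeR adjusted p of Pfkl ran from 0.12 to 0.225, and limma-voom gave an adjusted p of 0.065. Pfkm, the muscle form, was at 7.85 ± 1.31 CPM in sgLkb1 and 11.6 ± 2.64 CPM in sgNeo and did not pass (edgeR adjusted p = 0.20).

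Summed over the 3 forms, phosphofructokinase RNA came to 43.0 ± 4.77 CPM per kb of exon in sgLkb1 and 29.3 ± 2.56 CPM per kb in sgNeo (SD, n = 3 each). Pfkl made up 71.0, 84.3 and 80.4% of it in sgLkb1, and 76.7, 76.6 and 76.3% in sgNeo. These shares divide by the length of all annotated exons, 13.4 kb for Pfkp and 6.675 kb for Pfkl, and may understate Pfkp. The log2 ratio of Pfkp to Pfkl counts was -1.38 ± 0.77 in sgLkb1 and -1.71 ± 0.19 in sgNeo, a difference of 0.32 with an exact two-sided permutation p of 0.70, where 3 against 3 libraries allow no p below 0.10. Without sgLkb1 replicate 1 the difference was -0.09, so its direction rests on that library.

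Pfkfb4 had the largest fall of the 10. The enzyme makes fructose 2,6-bisphosphate and is known as a hypoxia-induced form in tumours. Its level was 29.6, 18.0 and 24.5 CPM in sgLkb1, and 80.5, 81.2 and 87.2 CPM in sgNeo. The sgNeo libraries agreed closely, and the highest sgLkb1 library was far below the lowest of them. The log2 fold change was -1.79 (SE 0.20), so that the sgNeo level was 3.45-fold the sgLkb1 level, with an edgeR adjusted p of 0.0013. It passed in every leave-one-out fit, where the log2 fold change ran between -1.95 and -1.59 and the highest edgeR adjusted p was 0.0095. The gene spans bases 108991778 to 109032228 of chromosome 9, plus strand (GRCm38), and no exon of another annotated gene overlaps its own.

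Pfkfb3, the form with the strongest bias towards making fructose 2,6-bisphosphate, was the least abundant of the 10 per kb of exon in both genotypes. It stood at 14.1, 18.6 and 14.1 CPM in sgLkb1, and at 22.6, 20.9 and 18.8 CPM in sgNeo. The groups just missed each other, between sgLkb1 replicate 2 and sgNeo replicate 3, and the difference did not pass (log2 fold change -0.41, SE 0.19, edgeR adjusted p = 0.19). As a log2 ratio, Pfkfb4 to Pfkfb3 counts stood at 1.07, -0.04 and 0.80 in sgLkb1, and 1.83, 1.96 and 2.21 in sgNeo. The difference of -1.39 had an exact two-sided permutation p of 0.10, the smallest that 3 against 3 libraries allow, and 0.30 after Benjamini-Hochberg adjustment over the 3 ratios tested. Every sgLkb1 ratio lay below every sgNeo ratio.

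The other forms of the family were read beside them. Pfkfb2, the heart-type form, was at 31.4 ± 1.87 CPM in sgLkb1 and 49.5 ± 13.2 CPM in sgNeo and did not pass (edgeR adjusted p = 0.066), and Pfkfb1, the liver form, was at 1.99 ± 0.54 CPM in sgLkb1 and 1.19 ± 0.57 CPM in sgNeo and did not pass (edgeR adjusted p = 0.37). Summed per length over the 4 forms, PFKFB RNA was 12.9, 10.8 and 11.8 CPM per kb in sgLkb1, and 28.6, 26.2 and 25.9 CPM per kb in sgNeo. Pfkfb4 made up 34.2 to 47.2% of that sum in sgLkb1 and 57.7 to 69.1% in sgNeo. Phosphofructokinase RNA and PFKFB RNA thus lay apart in opposite directions, the one higher and the other lower in all sgLkb1 libraries.

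**Figure D2:**
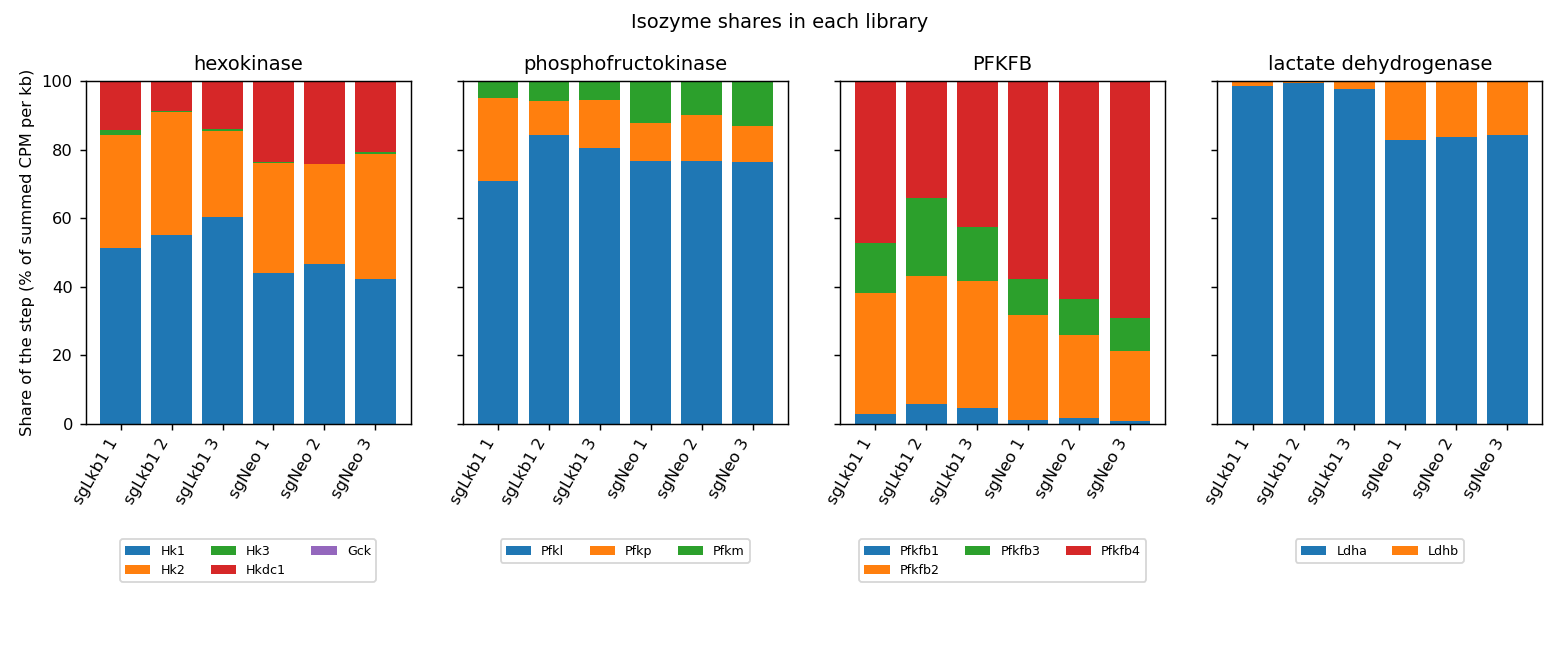
Share of each isozyme in the summed RNA of its step, in percent of CPM per kb of exon, for the 3 sgLkb1 and the 3 sgNeo libraries, as stacked bars for hexokinase, phosphofructokinase, PFKFB and lactate dehydrogenase. Pfkfb4 takes at most 47.2% of the PFKFB sum in sgLkb1 and at least 57.7% in sgNeo, and Ldhb takes at most 2.25% of the lactate dehydrogenase sum in sgLkb1 and at least 15.9% in sgNeo.

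Of the hexokinases, which phosphorylate glucose on entry, neither Hk1 nor Hk2 passed the test, and Hkdc1 fell. Hk1, the widely expressed hexokinase, was at 110, 137 and 148 CPM in sgLkb1, and at 116, 128 and 120 CPM in sgNeo. Hk2, the inducible hexokinase of muscle and many tumours, was at 49.6, 62.6 and 43.2 CPM in sgLkb1, and at 59.1, 56.3 and 72.4 CPM in sgNeo. The genotypes overlapped for both, with log2 fold changes of 0.12 (SE 0.16) for Hk1 and -0.27 (SE 0.19) for Hk2 and edgeR adjusted p of 0.66 and 0.36. The log2 ratio of Hk2 to Hk1 counts was -1.35 ± 0.36 in sgLkb1 and -0.96 ± 0.23 in sgNeo, a difference of -0.39 with an exact two-sided permutation p of 0.30. Hkdc1, a less studied hexokinase, fell to 17.1 ± 3.95 CPM in sgLkb1, against 37.4 ± 2.73 CPM in sgNeo (log2 fold change -1.13, edgeR adjusted p = 0.0093), and passed in every leave-one-out fit. Hk1 made up 51.3 to 60.2% of hexokinase RNA per length in sgLkb1 and 42.1 to 46.5% in sgNeo.

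Gpi1, glucose 6-phosphate isomerase, which makes fructose 6-phosphate, was at 287, 314 and 340.5 CPM in sgLkb1, and at 219, 217 and 280.5 CPM in sgNeo. The libraries came close without overlapping, and the difference did not pass (log2 fold change 0.40, SE 0.17, edgeR adjusted p = 0.16).

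Per kb of exon, the order of the 10 genes was nearly the same in both genotypes except for Pfkfb4. Levels in sgLkb1 ran from 856 CPM per kb for Ldha through 387 for Pkm, 161 for Pgk1, 48.7 for Gpi1, 34.0 for Pfkl, 15.5 for Hk1, 8.68 for Hk2, 6.66 for Pfkp and 4.93 for Pfkfb4 to 2.06 for Pfkfb3. Hk2 and Pfkp overlapped between sgLkb1 libraries, as did Pfkp and Pfkfb4, and the other neighbours did not. In sgNeo, Pfkfb4 stood in place 6 at 17.0 CPM per kb, above Hk1 at 14.2, and no neighbours overlapped. Lengths are those of all annotated exons of a gene, so levels of genes with many exon forms such as Pfkp are understated. The 10 genes together took 0.53 to 0.73% of all counts in sgLkb1 and 0.30 to 0.38% in sgNeo, and Ldha and Pkm made up 74.7 to 80.7% of their summed CPM in all 6 libraries.

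Along the rest of the route, 2 of 16 other glycolytic enzymes tested rose and 2 fell, against 7.05% higher and 8.60% lower over all genes tested, with a median log2 fold change of 0.06. Those that rose act between Pgk1 and Pkm in the route. Eno1, enolase, rose to 1654 ± 357 CPM in sgLkb1, against 711 ± 79.8 CPM in sgNeo (log2 fold change 1.22, edgeR adjusted p = 0.0086, or 0.055 when sgNeo replicate 2 was dropped). Pgam1, phosphoglycerate mutase, rose to 321 ± 29.3 CPM in sgLkb1, against 174 ± 39.6 CPM in sgNeo (log2 fold change 0.88, edgeR adjusted p = 0.022). That call ended if sgNeo replicate 1 or 2, or sgLkb1 replicate 2, was dropped (edgeR adjusted p up to 0.091). Those that fell were Hkdc1 and Ldhb. Hk3, a hexokinase of myeloid cells, was below 1 CPM on average in both genotypes and did not pass. Between phosphofructokinase and Pgk1, aldolase Aldoa, Tpi1 and Gapdh had log2 fold changes of 0.64, 0.40 and 0.51 and did not pass (edgeR adjusted p = 0.069, 0.25 and 0.14). Gapdh, Eno1 and Pgam1 have processed copies in the genome, so part of their reads may be divided between rows. Without sgNeo replicate 2 none of the 16 rose, and 1 did without sgNeo replicate 1 or sgLkb1 replicate 2. In that order, these fits called 447 of 16750, 545 of 16850 and 701 of 16556 genes higher, against 1127 of 15978 with all libraries.

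**Figure D3:**
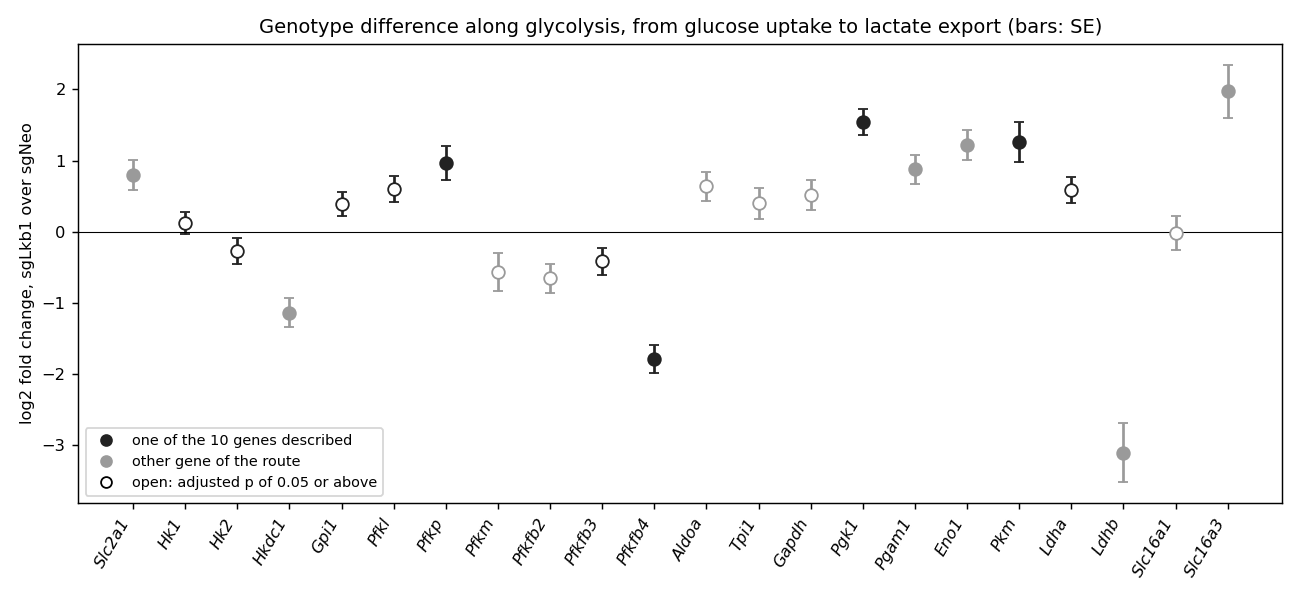
Log2 fold change (sgLkb1 over sgNeo) with its SE for genes placed in order from glucose uptake to lactate export, filled where the edgeR adjusted p was below 0.05, dark for the 10 genes described and grey for others. Values lie above 0 from Aldoa through Ldha, with Pgk1 at 1.54, while Pfkfb4 at -1.79 and Ldhb at -3.10 are the lowest called among the genes plotted.

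Among carriers of glucose and lactate, 3 of 14 tested rose and 5 fell, against 7.05% higher and 8.60% lower over all genes tested. Slc16a3, MCT4, the lactate exporter of glycolytic cells, rose to 44.4 ± 7.88 CPM in sgLkb1, against 11.3 ± 6.44 CPM in sgNeo (log2 fold change 1.97, edgeR adjusted p = 0.011), and passed in every leave-one-out fit. Slc2a1, the glucose carrier GLUT1, rose to 156 ± 37.8 CPM in sgLkb1, against 89.5 ± 14.5 CPM in sgNeo (edgeR adjusted p = 0.039), but among the 6 leave-one-out fits passed only without sgLkb1 replicate 1 (edgeR adjusted p up to 0.16 in the others). Slc16a7, MCT2, a high-affinity pyruvate and lactate carrier, fell to 1.58 ± 0.70 CPM in sgLkb1, against 13.6 ± 2.09 CPM in sgNeo (log2 fold change -3.10, edgeR adjusted p = 0.0017). The sodium-glucose carrier Slc5a1 and the monocarboxylate carrier chaperone Emb also fell, with log2 fold changes of -2.16 and -1.58. For Slc5a1 the call ended when sgNeo replicate 2 was dropped (edgeR adjusted p = 0.071). For Emb it ended when sgNeo replicate 1 or 2, or sgLkb1 replicate 2 or 3, was dropped (edgeR adjusted p up to 0.082). Of the other Slc2a carriers, Slc2a3 and Slc2a8 fell, with log2 fold changes of -4.50 and -1.02 (edgeR adjusted p = 0.027 and 0.048). Slc2a3 was at 24.9, 13.8 and 2.11 CPM in sgNeo and averaged 0.61 CPM in sgLkb1. Slc2a5 rose to 1.37 ± 1.10 CPM in sgLkb1, against 0.04 ± 0.07 CPM in sgNeo (log2 fold change 4.96, edgeR adjusted p = 0.027). The number of carriers that rose was 1 without sgNeo replicate 2 or 3 or sgLkb1 replicate 2. In the same fits 447 of 16750, 709 of 16847 and 701 of 16556 of all genes tested rose. Dropping sgNeo replicate 1 or sgLkb1 replicate 2 left 2 that fell, dropping sgNeo replicate 2 left 1, and dropping sgLkb1 replicate 1 left 3. In that order, 780 of 16850, 828 of 16556, 682 of 16750 and 1412 of 16698 of all genes tested fell.

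Genes that govern the fate of pyruvate showed 0 of 14 higher and 3 lower by edgeR, against 7.05% higher and 8.60% lower over all genes tested, and 1 higher by DESeq2 and without sgLkb1 replicate 1. DESeq2 called 1819 of all 15963 genes tested higher, and the fit without sgLkb1 replicate 1 called 1368 of 16698. Pdk2 and Pdk4, kinases that switch off pyruvate dehydrogenase, fell to 24.4 ± 4.79 and 9.12 ± 0.67 CPM in sgLkb1, against 68.6 ± 1.64 and 21.5 ± 3.16 CPM in sgNeo (log2 fold changes -1.49 and -1.24, edgeR adjusted p = 0.0016 and 0.0054). The opposing phosphatase Pdp2 fell too (log2 fold change -0.93, edgeR adjusted p = 0.038), and among the 6 leave-one-out fits passed only without sgLkb1 replicate 2 (edgeR adjusted p up to 0.14 in the others). Mpc1, a subunit of the mitochondrial pyruvate carrier, was at 98.0 ± 22.4 CPM in sgLkb1 and 135 ± 16.4 CPM in sgNeo and did not pass (edgeR adjusted p = 0.16).

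At the branches that leave or feed glucose 6-phosphate and the triose phosphates, 2 of 22 genes tested rose and 3 fell, against 7.05% higher and 8.60% lower over all genes tested. Gpd2, the mitochondrial glycerol 3-phosphate dehydrogenase that passes electrons from cytosolic NADH to the respiratory chain, rose to 127 ± 8.56 CPM in sgLkb1, against 35.6 ± 6.31 CPM in sgNeo (log2 fold change 1.83, edgeR adjusted p = 0.00082). Its cytosolic partner Gpd1 fell to 51.7 ± 13.2 CPM in sgLkb1, against 110 ± 17.1 CPM in sgNeo (edgeR adjusted p = 0.014, or 0.057 when sgNeo replicate 1 was dropped). H6pd, a glucose 6-phosphate dehydrogenase of the endoplasmic reticulum, and Pck2, the mitochondrial phosphoenolpyruvate carboxykinase, fell with log2 fold changes of -1.36 and -1.12 (edgeR adjusted p = 0.0016 and 0.0049), and both passed in every leave-one-out fit. G6pdx, the entry enzyme of the pentose phosphate pathway, was at 105 ± 11.5 CPM in sgLkb1 and 93.8 ± 21.5 CPM in sgNeo and did not pass. Of these genes 1 rose without sgNeo replicate 1 or 2, and 5 fell without sgLkb1 replicate 1. The first 2 of these fits called 545 of 16850 and 447 of 16750 genes higher, and the last called 1412 of 16698 lower.

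Of 6 regulators tested around fructose 2,6-bisphosphate and glucose phosphorylation, 2 rose and none fell by edgeR, against 7.05% higher and 8.60% lower over all genes tested, and DESeq2 called 1 lower. Adpgk, an ADP-dependent glucokinase, was at 37.5 ± 3.10 CPM in sgLkb1 and 24.5 ± 3.92 CPM in sgNeo (edgeR adjusted p = 0.048), and passed in none of the 6 leave-one-out fits, whose edgeR adjusted p ran from 0.050 to 0.17. Fbp1, fructose 1,6-bisphosphatase, was at 6.29 ± 2.70 CPM in sgLkb1 and 1.75 ± 0.94 CPM in sgNeo (edgeR adjusted p = 0.041), and did not pass when sgNeo replicate 1 or 3, or sgLkb1 replicate 1 or 2, was dropped (edgeR adjusted p up to 0.13). Limma-voom gave it an adjusted p of 0.051. Pfkfb1, the first gene of this list, is given above. Dropping any of the same 4 libraries as for Fbp1 left 0 of these regulators higher, and dropping sgLkb1 replicate 3 left 1. Calls higher over all genes were 545 of 16850 without sgNeo replicate 1 and 709 of 16847 without sgNeo replicate 3. They were 1368 of 16698, 701 of 16556 and 996 of 16575 without sgLkb1 replicates 1, 2 and 3.

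Of 14 transcriptional regulators of glycolysis and their partners, 2 rose and 3 fell, against 7.05% higher and 8.60% lower over all genes tested. Hif1a was at 227 ± 81.1 CPM in sgLkb1 and 178 ± 9.25 CPM in sgNeo and did not pass (edgeR adjusted p = 0.38), and Epas1, which encodes HIF-2 alpha, fell to 97.1 ± 26.9 CPM in sgLkb1, against 218 ± 28.4 CPM in sgNeo (log2 fold change -1.17, edgeR adjusted p = 0.011). Egln3, a HIF prolyl hydroxylase that HIF itself induces, rose to 19.6 ± 5.50 CPM in sgLkb1, against 4.96 ± 3.12 CPM in sgNeo (log2 fold change 1.98, edgeR adjusted p = 0.021). Its log2 fold change was 2.60 without sgNeo replicate 3, and it did not pass when sgNeo replicate 1 or 2, or sgLkb1 replicate 2, was dropped (edgeR adjusted p up to 0.080). Txnip, which restrains glucose uptake and is induced by the glucose sensors MondoA and ChREBP, fell to 192.5 ± 14.96 CPM in sgLkb1, against 487 ± 54.6 CPM in sgNeo (log2 fold change -1.34, edgeR adjusted p = 0.0018). Mlxipl, which encodes ChREBP, fell to 0.91 ± 0.33 CPM in sgLkb1, against 3.91 ± 0.27 CPM in sgNeo (edgeR adjusted p = 0.015, or 0.065 when sgNeo replicate 2 was dropped). Mycl rose to 4.64 ± 1.89 CPM in sgLkb1, against 0.31 ± 0.32 CPM in sgNeo (log2 fold change 3.89, edgeR adjusted p = 0.028). The number that rose was 0 without sgNeo replicate 1 or sgLkb1 replicate 2 and 1 without sgNeo replicate 2 or sgLkb1 replicate 3. Those fits called 545 of 16850, 701 of 16556, 447 of 16750 and 996 of 16575 genes higher, in that order.

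**Figure D4:**
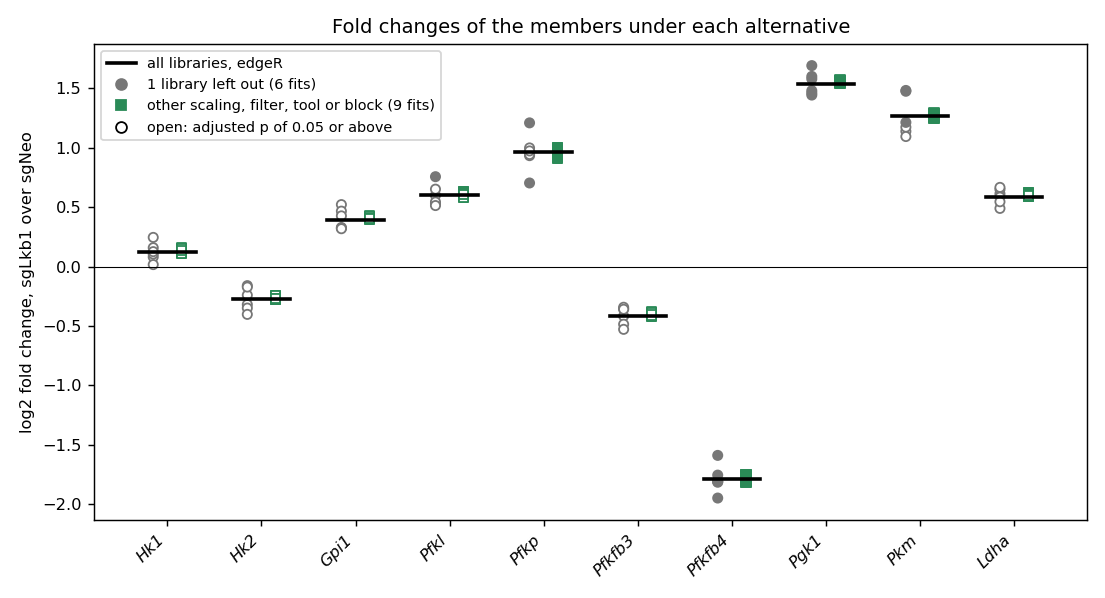
Log2 fold change (sgLkb1 over sgNeo) of each of the 10 genes with all libraries (black lines), with 1 library left out (grey circles) and with another scaling, filter, tool or the replicate number as a block (green squares), open where the adjusted p was 0.05 or above. No gene changes sign, Pgk1 stays between 1.44 and 1.69 and Pfkfb4 between -1.95 and -1.59 with every symbol filled, while Pkm and Pfkp have open circles.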

How the data were processed

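RNA of sorted tumour cells was sequenced in 6 libraries. The deposited table gives counts per gene, of which 10.41 to 11.85% per library are not whole numbers. They were taken to be expected counts because the submitters' processing notes name RSEM. GRCm38, STAR, RSEM, FastQC and DESeq2 are named in the submitters' processing notes. Their versions, the annotation release and the strand setting are not given in the sources, so reads of a gene and its antisense partner cannot be told apart. The expected counts were rounded, kept with filterByExpr (15978 of 55487 genes), scaled with TMM and tested with edgeR 4.0.16 (glmQLFit and glmQLFTest, two-sided, genotype as the only term, R 4.3.3). CPM are relative to scaled library sizes. A log2 fold change over the square root of its F statistic gave the SE. Isozyme ratios used rounded counts plus 0.5 and an exact permutation test over libraries. Exon lengths and positions came from GENCODE M21 (GRCm38), which matched 55227 gene IDs, and promoters from RefSeq. Where 2 rows shared the symbol Aldoa, the more abundant was used. Other settings were upper-quartile or RLE scaling, the replicate number as a block, no filter, a robust dispersion, a filter at 1 CPM in 3 libraries, removal of the 10 most abundant genes, limma-voom (limma 3.58.1), DESeq2 1.42.0 and each library left out. The genes and lists were chosen with earlier results of these data known. Named genes were the 10, the first gene of each of the 6 pathway lists and up to 4 of its called genes with the lowest p, plus Stk11. Further genes were added for their place in the pathway, on the chromosome or in the sort after values were seen. They were Gm49759, Pitrm1, Pfkm, Pfkfb2, Pklr, Aldoa, Tpi1, Gapdh, Slc2a3, Slc2a5, Slc2a8, Pgm2, Mycl, the markers, the enzymes listed as not plotted along the route and, in that plot, Slc16a1. Replicates of a group differed by more than sampling noise.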

Additional observations from a re-analysis of the deposited data

How the results depend on the processing

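No log2 fold change of the 10 genes changed sign in any of the 15 alternatives, and scaling moved the median over all genes by at most 0.03. The number of the 10 called higher was 5 with DESeq2, which added Pfkl and Ldha, and 1 to 4 with a library left out. The number called lower was 1 in each. DESeq2 called 1819 of all 15963 genes tested higher and 1740 lower, against 1127 and 1374 of 15978 in the main fit. The replicate block called 1336 higher and 1544 lower. With a library left out, 447 to 1368 of all genes tested (16556 to 16850) were called higher and 682 to 1412 lower. Over all genes 2501 were called, and 1129 to 2780 with a library left out (dropping sgNeo replicate 1, 2 or 3 gave 1325, 1129 or 1587, and dropping sgLkb1 replicate 2 gave 1529). For other glycolytic enzymes, 5 were higher with DESeq2, 4 with the replicate block and 0 to 3 with a library left out. For the regulators of fructose 2,6-bisphosphate, 1 was higher with limma-voom and 0 to 2 with a library left out, and 1 was lower without the filter, with DESeq2 and with the block. For pyruvate entry, 1 was higher with DESeq2 and 0 to 1 with a library left out. With a library left out, 1 to 3 carriers were higher and 1 to 4 lower, 1 to 2 branch genes higher and 2 to 5 lower, and 0 to 2 HIF and MYC regulators higher. The log2 fold change of G6pdx, -0.002 to 0.329 with a library left out, turned without sgNeo replicate 1, and the Pfkp to Pfkl difference, -0.089 to 0.673, turned without sgLkb1 replicate 1. The Hk2 to Hk1 difference lay between -0.51 and -0.18, and the Pfkfb4 to Pfkfb3 difference between -1.62 and -1.07. Same-numbered replicates had deviations correlated at 0.14, -0.02 and 0.12, against -0.17 to 0.09 between unequal numbers. The values for replicates 1 and 3 were thus above every unequal pair, and that for replicate 2 was not. Whether the numbers pair the libraries is not settled by these values, and the labels do not say. With the replicate block 2880 genes were called, Ldha among them (edgeR adjusted p = 0.033), and the isozyme differences, such as -1.39 for Pfkfb4 to Pfkfb3, were unchanged by construction. The cause of these changes was not tested. No group had 4 or more libraries, so single libraries were not tested for standing apart.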
